A study of Mus musculus with 36 samples.

Results

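The step from days 0 and 1 to days 2 and 3 of differentiation was examined in Xmas mouse embryonic stem cells (mESCs), which are female C57/Bl6 cells whose X chromosomes carry different reporters at Hprt, GFP or mCherry. The 8 libraries of days 2 and 3 were compared with the 8 of days 0 and 1, which is 16 of the 36 libraries of a time course that runs from day 0 to day 8. Every day holds 4 libraries, from lines X14 and X18 and with the words double and single in their names (replicate 1 X14 double, 2 X14 single, 3 X18 double, 4 X18 single). The labels do not say what those words mean, and each line and word is called a culture here. All groups share strain and female origin. In the paper, Xmas mESCs positive for a single reporter held only the corresponding allele. Whether the word single refers to such cells is not stated, so the libraries may differ in reporters and X chromosomes. Before day 0 the cells had grown in serum-free medium with 2i, which is the MEK inhibitor PD0325901 and the GSK3 inhibitor CHIR99021, and with leukaemia inhibitory factor (LIF), first in suspension and then attached to gelatin. Differentiation replaced that medium by serum medium without LIF in equal daily steps, a weaning that the paper places over 3 days. Cells were plated anew on the day of full serum medium. Libraries of days 1 to 3 may thus come from cultures with part of the 2i and LIF left, and the medium of each library is not stated. The loss of 2i, the loss of LIF, the gain of serum and the plating cannot be told apart. The labels tie the libraries of a culture to the same line and do not say whether they came from separate dishes, so p-values measure the spread between these libraries. Of 24483 autosomal genes (chromosomes 1 to 19) in the deposited table, 12567 had at least 1 RPM (reads of a gene per 1000000 reads of the library total that scales the deposited values) in at least 4 of the 16 libraries and were tested.

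In 2i and LIF, mESCs rest in the naive state of the early epiblast. MEK inhibition stops FGF signals from reaching ERK, GSK3 inhibition keeps beta-catenin active, and LIF acts through STAT3, and all of these feed a network of factors such as Nanog, Klf4, Esrrb and Tfcp2l1. When the inhibitors go, cells pass through a formative state marked by Otx2, Pou3f1 and the de novo DNA methyltransferases before they take up a lineage.

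The libraries held 756136 to 2335736 reads in genes (median 1249713), with a median of 1078898 on days 0 and 1 and 1414378 on days 2 and 3. These were 77.7% to 89.6% of the total behind RPM, and a floor of 3 reads stood at 1.13 to 3.23 RPM. The mESC markers Pou5f1 (818 to 1554 RPM on days 0 and 1), Nanog, Sox2, Zfp42 and Esrrb were present in each of the 16 libraries, and 7 of 11 fibroblast markers had no read in any of them. The X14 libraries of day 0 did not pair by label with those of day 1. Deviations from the day mean in X14 double on day 0 correlated at 0.874 over genes with those of X14 single on day 1 and at -0.582 with those of X14 double on day 1, while same-numbered pairs without an X14 library of day 0 lay at 0.324 or above. X14 single on day 0 gave 0.102 with X14 double and -0.001 with X14 single of day 1. These correlations include the trend with exon length described below. Its slopes were 0.255 in X14 double on day 0 and 0.230 in X14 single on day 1. The part of that trend in the correlations was not tested. The labels were kept, and counts are given with and without both libraries.

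Autosomal genes changed in both directions between days 0 and 1 and days 2 and 3, with more rises than falls. By limma, 430 of 12567 genes (3.42%) were higher and 197 (1.57%) lower on days 2 and 3, where a call needed a Benjamini-Hochberg adjusted p under 0.05 over all genes tested and a log2 difference of at least 1. Of the called genes, 425 of the higher and 192 of the lower lay on the same side in all 4 cultures. All 8 libraries of days 2 and 3 lay above all 8 of days 0 and 1 in 94 genes (0.748%) and below them in 49 (0.390%). With replicate as a block, 577 (4.59%) were higher and 241 (1.92%) lower. Without the X14 libraries of day 0, 1499 genes (11.9%) were called higher and 494 (3.93%) lower, among them 421 and 186 of those above. With the length trend of each library removed, as described next, 352 (2.80%) were higher and 266 (2.12%) lower.

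Most calls rested on day 3. Day 2 alone against days 0 and 1 gave 7 higher and 5 lower genes (1748 at an unadjusted p under 0.05), and day 3 alone gave 287 higher and 198 lower. The sizes of the differences did not all follow these counts. The median log2 difference over all autosomal genes tested was 0.159 for day 2 alone and 0.095 for day 3 alone. The 12 genes called on day 2 alone included Peg10, Dnmt3l, Id2 and Dll1, which were higher, and S100a1, which was lower. The remaining 7, named here after their values were seen, were Aire, Nxph4 and Slc39a14 on the higher side and Dpp4, Ccbl2, Gm694 and Rwdd2a on the lower. Counts also depended on single cultures, and leaving out X18 single gave 95 higher and 45 lower while leaving out X14 double gave 665 and 251.

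**Figure D1:**
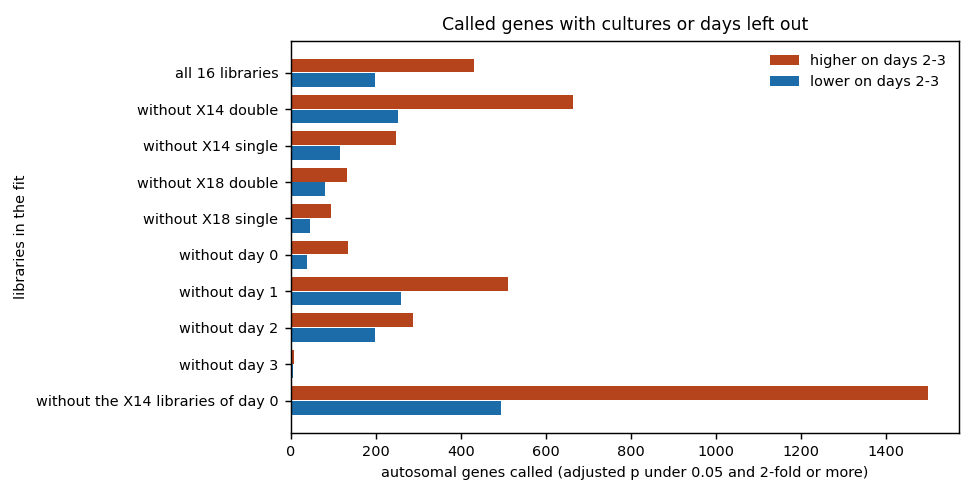
Bars give the number of autosomal genes called higher (red) or lower (blue) on days 2 and 3, on a linear axis from 0, with all 16 libraries and with a culture, a day or the X14 libraries of day 0 left out. Without day 3 the counts were 7 and 5, and without the X14 libraries of day 0 they were 1499 and 494.

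Differences followed exon length in these libraries. The median log2 difference was -0.26 in the tenth of autosomal genes with the shortest exons and 0.44 in the tenth with the longest, against 0.12 over all autosomal genes tested. The slope of a library's values on length, in log2 units per doubling of exon length over 8553 genes, ran from -0.424 in X18 double on day 0 to 0.255 in X14 double on day 0, and on days 2 and 3 from -0.0535 to 0.242. Removing a smooth length trend from every library, a step chosen after seeing the data, brought the median over all autosomal genes to 0.01. It kept 304 of the 430 higher and 159 of the 197 lower genes and moved the higher share of calls from 68.6% to 57.0%, while quantile normalization moved it to 53.3% and the median from 0.12 to 0.01. The part of this trend in any one gene's difference was not tested, and the medians of most lists below are given before and after its removal.

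**Figure D2:**
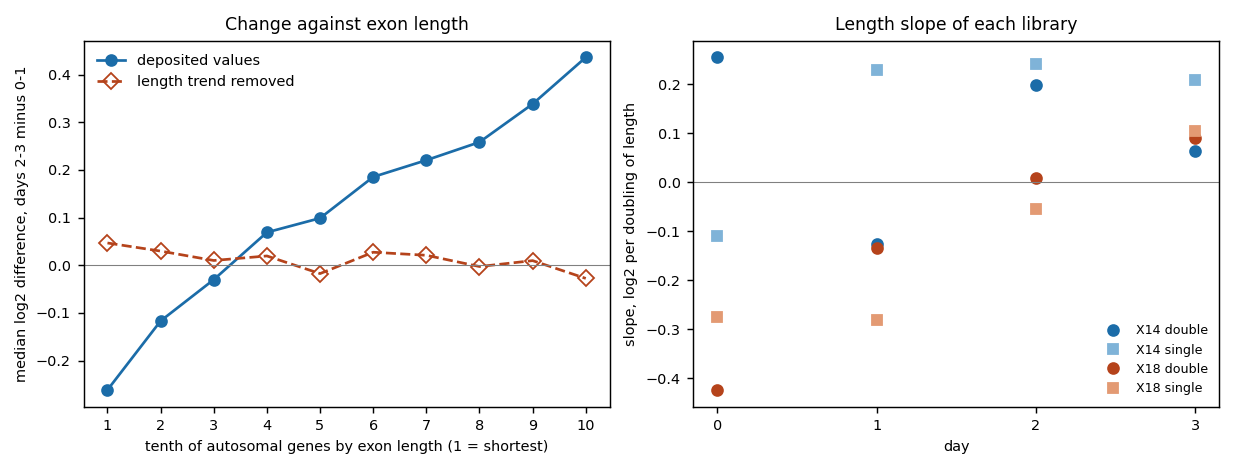
Left, the median log2 difference (days 2 and 3 minus days 0 and 1) in 10 equal groups of the autosomal genes ordered by exon length, from the deposited values (filled) and with the length trend of every library removed (open). Right, the slope of each library on log2 exon length by day, with colours for the 4 cultures. The filled points climb from -0.26 to 0.44, and X18 double on day 0 has the lowest slope at -0.424.

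Lists of genes by function were set side by side through the median of their log2 differences. The lists and their members were chosen with earlier results of these data known, so their counts and medians carry no test. Their counts of calls stand beside 3.42% higher and 1.57% lower over all autosomal genes tested (2.80% and 2.12% with the length trend removed). Of all these genes 58.56% had a positive difference. Some genes, such as Dnmt3b, Lef1, Fgf15, Myc and Pdk1, sit in more than 1 list and count in each. The formative and primed list had the highest median, 1.52, and retinoic acid response the lowest with all 16 libraries, -1.03. For formative and primed genes the culture medians ran from 0.91 to 1.76, for naive factors from -0.86 to 0.22. Some list medians were smaller for day 2 alone than for day 3 alone, as for formative and primed (1.135 and 1.967) and ERK response (0.817 and 1.305). Others were larger for day 2 alone, as for glycolysis (0.68 and 0.638) and basement membrane (0.778 and 0.401). Without the X14 libraries of day 0 the counts grew in several lists, to 12 higher of 17 for ERK response, 10 of 13 for formative and primed, 5 of 13 for LIF and STAT3, 7 of 11 for serum and actin response and 6 of 9 for DNA methylation enzymes, beside 11.9% of all autosomal genes in that fit, and naive factors had 0 higher and 2 lower. Among 81 called genes followed one by one, 0 lost the call without those libraries, 76 lost it without day 3, 50 without day 0 and 44 without X18 single.

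**Figure D3:**
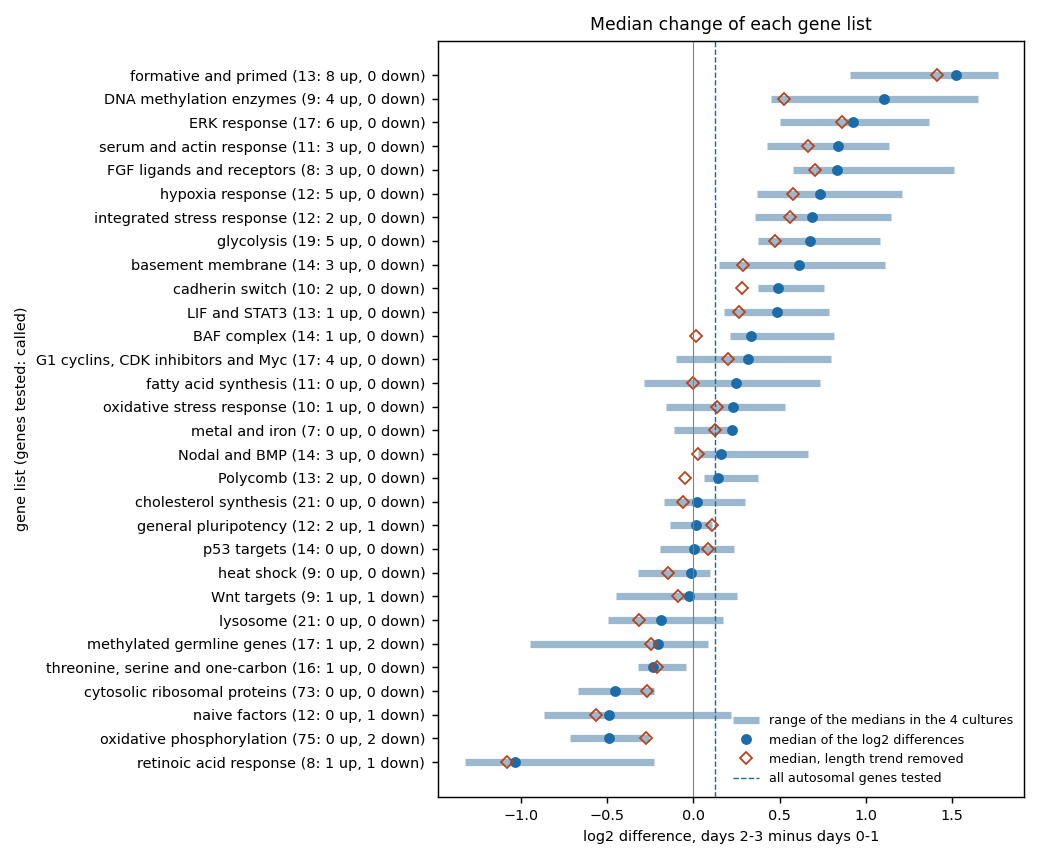
For each gene list the filled point is the median log2 difference (days 2 and 3 minus days 0 and 1) over its tested autosomal members, the bar the range of that median over the 4 cultures and the open diamond the median with the length trend removed. The dashed line is the median of all autosomal genes tested, 0.12, and the labels give the members tested and called.

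Of 12 naive factors, all tested, 0 were called higher and 1 lower, with a median log2 difference of -0.49 (-0.56 with the length trend removed, where 2 were lower). The list median was -0.05 for day 2 alone, -0.69 for day 3 alone and -0.21 without the X14 libraries of day 0. The one called was Dppa3, also named Stella, a maternal factor that guards against DNA methylation. It stood at 95.4 RPM (median, 18.3 to 186), lowest to highest, in the 8 libraries of days 0 and 1 and at 27.6 RPM (median, 11.7 to 55.5) in those of days 2 and 3, so the groups overlapped (log2 difference -1.43 ± 0.39 (SE), adjusted p = 0.0293). Nanog, the homeodomain factor of the naive network, lay at 1938 RPM (median, 1271 to 2955) and then at 1169 RPM (median, 408 to 1843). Its difference passed the adjusted p but not the fold (log2 difference -0.94 ± 0.27 (SE), adjusted p = 0.0366). The zinc finger gene Zfp42, or Rex1, was likewise under the fold minimum (log2 difference -0.71 ± 0.16 (SE), adjusted p = 0.0127).

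Other naive factors gave no call. The nuclear receptor Esrrb averaged 390.1 ± 267 RPM (SD, n = 4) on day 0 and 369 ± 21.9 RPM on day 3, with 572 ± 46.4 RPM on day 2 between them (log2 difference 0.24 ± 0.25 (SE), adjusted p = 0.533). Klf4 had 141 RPM (median, 87.4 to 239.7) early and 158 RPM (median, 116 to 220.3) late, and its log2 difference was 0.07 ± 0.18 (adjusted p = 0.826). For Klf2 it was -0.40 and for Klf5 0.71 (adjusted p = 0.172 and 0.0547). Tfcp2l1, a target of STAT3, had 533 ± 346 RPM on day 1 and 178 ± 62.5 RPM on day 3 without a call (adjusted p = 0.189), and was called lower once the length trend was removed (-1.09, adjusted p = 0.0049). Tbx3 and Prdm14 were at 119.5 and 57.5 RPM on day 2 and 41.9 and 28.7 RPM on day 3, also without a call. On day 4, which is outside the comparison, Klf4 averaged 3.8 RPM, Nanog 130.2, Esrrb 39.6 and Tfcp2l1 28.9.

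General pluripotency genes moved apart from each other. Pou5f1, which encodes Oct4, had 1309 RPM (median, 818 to 1554) on days 0 and 1 and 1307 RPM (median, 1015 to 1429) on days 2 and 3, a log2 difference of 0.00 ± 0.15 (adjusted p = 0.995). Its partner Sox2 had a difference of 0.29 (adjusted p = 0.231). Utf1, a chromatin factor of pluripotent cells, rose from 77.8 RPM (median, 18.5 to 157) to 242 RPM (median, 171 to 372), and the groups did not overlap (log2 difference 1.91 ± 0.22 (SE), adjusted p = 5.46e-05). The RNA-binding gene Lin28a, which blocks maturation of let-7, rose from 41.2 RPM (median, 8.22 to 181) to 248 RPM (median, 68 to 579.9) (log2 difference 2.47 ± 0.52 (SE), adjusted p = 0.00784). Dppa5a fell from a median of 2154 to 898 RPM (log2 difference -1.15 ± 0.28 (SE), adjusted p = 0.0165), a call lost with the length trend removed (-0.77), and near-identical copies of this gene make its reads uncertain. Over the list, 2 of 12 were called higher and 1 lower, with a median of 0.02 (0.11 with the length trend removed).

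**Figure D4:**
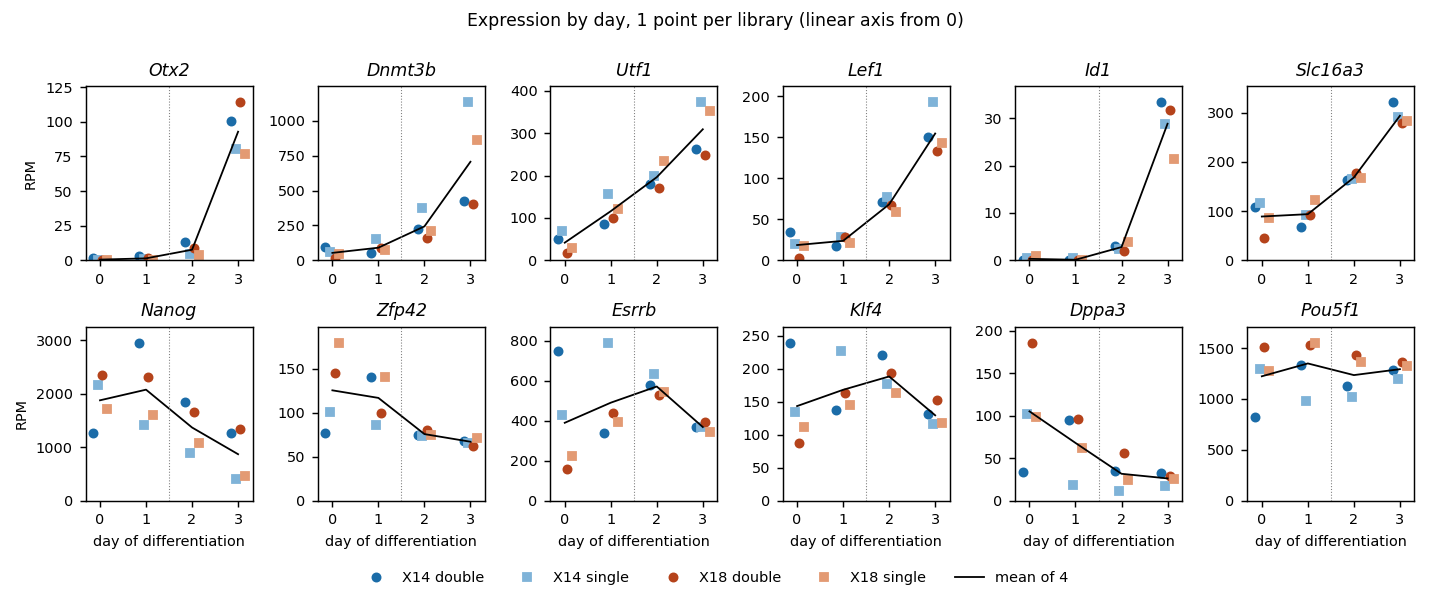
RPM of 12 genes on days 0 to 3, 1 point per library with colours for the 4 cultures, a line through the means of the 4 libraries of a day and a dotted line between the groups compared. In the top row all 8 libraries of days 2 and 3 lie above those of days 0 and 1, while Pou5f1, Klf4 and Esrrb in the bottom row stay within the early range on day 3.

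Most tested genes of the formative list were called. Of 13 tested genes of the formative and primed list 8 were called higher and 0 lower (6 and 0 with the length trend removed), and 11 had a positive difference (median 1.52, 1.41 with the length trend removed). Otx2, a homeodomain factor that directs Oct4 to new enhancers (chr14:48657679-48667644, mm10), had 0.755 RPM (median, 0 to 2.82) on days 0 and 1, which is 13 reads in all. It then averaged 7.7 ± 4.41 RPM (SD, n = 4) on day 2, 92.9 ± 17.7 RPM on day 3 and 270.1 RPM on day 4 (log2 difference 4.42 ± 0.36 (SE), adjusted p = 1.05e-06). This was the largest rise among the genes eligible to be named, and no library of days 2 and 3 lay in the early range. Dnmt3b went from 66.6 RPM (median, 14.4 to 149.8) to 387 RPM (median, 164 to 1132) without overlap (log2 difference 2.66 ± 0.34 (SE), adjusted p = 1.54e-04). Lef1, a DNA-binding partner of beta-catenin, went from 21 RPM (median, 3.08 to 34.2) to 105 RPM (median, 58.6 to 193), also without overlap (log2 difference 2.50 ± 0.36 (SE), adjusted p = 3.67e-04).

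The POU factor Pou3f1, or Oct6, came later, with 4.65 ± 0.941 RPM (SD, n = 4) on day 2, 30.3 ± 26.9 RPM on day 3 and 209 RPM on day 4 (log2 difference 1.94 ± 0.45 (SE), adjusted p = 0.014). Fgf15 had 2 reads in the 8 early libraries and 52 in the 8 later ones, a ratio per read sequenced of 22.8 (95% interval 5.99 to 193). Sox4 and Sox11, which are SoxC factors, rose by 1.63 and 1.39 on the log2 scale (adjusted p = 0.0446 and 0.029), and the Sox4 call was lost with the length trend removed (adjusted p = 0.0536). Sall2 gave 1.52 and missed the threshold at an adjusted p of 0.0596, but passed with replicate as a block (0.0274). Fgf5, the usual marker of the primed epiblast, had 4 reads in all 16 libraries and was not tested.

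Part of the ERK response rose, as did receptors that feed the pathway. Of 17 tested genes of the ERK response list, 6 were called higher and 0 lower (median 0.93, 0.86 with the length trend removed), and all 17 had a positive difference, against 58.56% of all autosomal genes tested. The list was chosen with earlier results known, so this share is a description and not a test. The feedback inhibitor Spry4 had 5 reads over days 0 and 1 and 315 over days 2 and 3, and 1 library of day 2 without a read left the groups overlapping. Spry4 went from 4.09 ± 4.82 RPM (SD, n = 4) on day 2 to 37.2 ± 24.2 RPM on day 3 (log2 difference 3.52 ± 0.51 (SE), adjusted p = 4.14e-04). Dusp6, the phosphatase that removes the activating phosphates of ERK, lay at 5.48 RPM (median, 2.11 to 11.5) and then 13.8 RPM (median, 5.75 to 41.9), with overlap (log2 difference 1.54 ± 0.40 (SE), adjusted p = 0.0251). Its relative Dusp4 gave 1.49 and was called with the replicate block (adjusted p = 0.0552 without and 0.0185 with it).

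The ETS factor Etv4 went from 16 RPM (median, 5.14 to 39.3) to 44.9 RPM (median, 29.8 to 74) (log2 difference 1.52 ± 0.31 (SE), adjusted p = 0.00685), while Etv5 passed the adjusted p with a difference of 0.65 (adjusted p = 0.0415). Among immediate early genes, Ier3 went from 7.64 RPM (median, 0 to 15.1) to 29.1 RPM (median, 12.8 to 41.3) (log2 difference 2.06 ± 0.35 (SE), adjusted p = 0.00185). Fos rested on 10 and 37 reads (log2 difference 1.30 ± 0.36 (SE), adjusted p = 0.0323) and Myc on 11 and 135 (log2 difference 2.30 ± 0.52 (SE), adjusted p = 0.0128), and in both the groups overlapped. Of the FGF list, 3 of 8 tested genes, Fgf15 and a pair of receptors, were higher and 0 lower (median 0.83, 0.70 with the length trend removed). The receptor Fgfr1 rose from a median of 51.5 to 93.6 RPM (log2 difference 1.04 ± 0.28 (SE), adjusted p = 0.0312) and Fgfr2 from 12 to 31 (log2 difference 1.33 ± 0.30 (SE), adjusted p = 0.0118), and both lost the call with the length trend removed (0.66 and 0.99). Fgf4, the ligand that mESCs make themselves, had 247 RPM on day 0 and 409.9 on day 3, under the fold minimum (log2 difference 0.58 ± 0.15 (SE), adjusted p = 0.0229).

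Targets of beta-catenin, which GSK3 inhibition keeps active, gave single calls in both directions. Of 9 tested Wnt targets 1 was higher, Lef1, and 1 lower, Cdx1 (median -0.03, -0.09 with the length trend removed). The caudal homeobox gene Cdx1 averaged 25.2 ± 16.3 RPM (SD, n = 4) on day 0, 5.56 ± 4.61 RPM on day 1, 1.15 ± 0.496 RPM on day 2 and 0.24 ± 0.277 RPM on day 3 (log2 difference -3.56 ± 0.48 (SE), adjusted p = 2.40e-04). With 214 early and 10 later reads it had the largest fall of the genes eligible to be named. Axin2, the feedback gene most used as a read-out of the pathway, went from 11.9 RPM (median, 2.99 to 40.3) to 4.57 RPM (median, 0.576 to 14). It missed the threshold (adjusted p = 0.0879) and was called lower with the replicate block (0.0269) and with the length trend removed (0.0432).

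Of 13 tested genes of the LIF pathway, 1 was called higher and 0 lower (median 0.48, 0.27 with the length trend removed, where Tfcp2l1 was lower). Socs3, the STAT3 target that limits LIF signalling, stood at 86.2 RPM (median, 17.5 to 144) and then 162 RPM (median, 144 to 214), with an overlap of the highest early and the lowest later library (log2 difference 1.22 ± 0.25 (SE), adjusted p = 0.00665). On day 4 it averaged 15.6 ± 7.68 RPM. The LIF receptor gene Lifr had 0.99 ± 0.28, just under the fold minimum (adjusted p = 0.0335), with means of 25.6, 36.3, 54.9 and 57.4 RPM on days 0 to 3 and 13.5 on day 4. Stat3 itself gave 0.70 (adjusted p = 0.124), and the STAT target Cish 1.47, called with the replicate block (adjusted p = 0.0613 without and 0.0439 with it).

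Genes for enzymes that write or oxidize DNA methylation rose in part. Of 9 enzymes and cofactors, all tested, 4 were called higher and 0 lower (median 1.10), which became 2 and a median of 0.53 with the length trend removed, their median exon length being 6304 bases against 3539 over all autosomal genes tested. Dnmt3l, the catalytically inactive cofactor of the de novo enzymes (chr10:78041947-78063622, mm10), had 77.7 RPM (median, 11.3 to 223) on days 0 and 1 and 706 RPM (median, 396 to 1116) on days 2 and 3. The groups did not overlap, and the day means were 34.8, 158, 459 and 989 RPM (log2 difference 3.33 ± 0.26 (SE), adjusted p = 7.82e-07). Dnmt3a rose by 1.41 (adjusted p = 0.0118), as did the oxidase Tet1 by 1.10 (adjusted p = 0.0474), and both lost the call with the length trend removed (0.79 and 0.53). The other call was Dnmt3b, given above, and Dnmt3a and Dnmt3b also count in the formative and primed list. The maintenance genes Dnmt1 and Uhrf1 gave 0.72 and 0.61 (adjusted p = 0.0723 and 0.0811), and Tet2 0.19. Tet3 gave 1.21 and passed with the replicate block (adjusted p = 0.0975 without and 0.0376 with it).

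Of 17 tested germline genes that carry promoter methylation in somatic cells, 1 was called higher and 2 lower (median -0.20, -0.25 with the length trend removed). Over all autosomal genes tested, 3.42% were higher and 1.57% lower. Stra8, a gene of meiotic entry that also answers to retinoic acid, fell from 58.8 RPM (median, 10.6 to 197) to 13 RPM (median, 3.41 to 26.8) (log2 difference -2.18 ± 0.37 (SE), adjusted p = 0.00181). Sycp3, of the synaptonemal complex, fell from a median of 15.6 to 6.28 RPM (log2 difference -1.45 ± 0.34 (SE), adjusted p = 0.0153), and averaged 21.6 RPM on day 4. The piRNA pathway gene Piwil2 rose (log2 difference 1.37 ± 0.31 (SE), adjusted p = 0.0128). Dazl went from 219 RPM on day 1 to 88.6 on day 3 without a call (adjusted p = 0.238).

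Some glycolysis genes rose, and few genes of the respiratory chain were called. Of 19 glycolysis genes, all tested, 5 were called higher and 0 lower, and 18 had a positive difference (median 0.68, 0.47 with the length trend removed). Over all autosomal genes tested, 3.42% were higher and 58.56% had a positive difference. This list too was chosen with earlier results known, so its shares are a description and not a test. The glucose transporter Slc2a1 went from 477 RPM (median, 205 to 662) to 1056 RPM (median, 594 to 1421) (log2 difference 1.30 ± 0.18 (SE), adjusted p = 3.41e-04). The lactate exporter Slc16a3 went from 92 RPM (median, 45.2 to 123) to 228 RPM (median, 164 to 321) without overlap (log2 difference 1.34 ± 0.18 (SE), adjusted p = 2.18e-04). Hexokinase Hk2, phosphofructokinase Pfkl and the pyruvate dehydrogenase kinase Pdk1, which keeps pyruvate out of mitochondria, rose by 1.18, 1.25 and 1.28 (adjusted p = 0.0147, 0.00683 and 0.00109). With the length trend removed Hk2 and Pdk1 fell under the fold minimum (0.90 and 0.92). Ldha gave 0.34 (adjusted p = 0.11).

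Respiratory chain genes were called in 2 of 75 cases (1.57% of all autosomal genes were lower), both lower, with a median of -0.49, and 6 of 75 had a positive difference. Cox7a1, a subunit of cytochrome oxidase with short exons, fell from 29.8 RPM (median, 5.76 to 82.2) to 6.91 RPM (median, 3.77 to 11.9) (log2 difference -1.86 ± 0.38 (SE), adjusted p = 0.00654). Ndufb4, of complex I, fell by 1.20 (adjusted p = 0.0136) and has near-identical copies. Of 73 cytosolic ribosomal protein genes 0 were called (median -0.46). Both lists hold short genes, with median exon lengths of 1363 and 1444 bases, and their medians became -0.28 and -0.27 with the length trend removed. Without the X14 libraries of day 0, 18 respiratory and 20 ribosomal protein genes were called lower, beside 3.93% of all autosomal genes in that fit.

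Genes of the hypoxia response list rose in part. Of 12 tested, 5 were higher and 0 lower (median 0.73, 0.58 with the length trend removed), beside 3.42% higher over all autosomal genes. Egln3, a prolyl hydroxylase that marks the hypoxia-inducible factor (HIF) for decay, went from 48.9 RPM (median, 16.4 to 75.5) to 141 RPM (median, 81.6 to 231) without overlap (log2 difference 1.75 ± 0.25 (SE), adjusted p = 3.67e-04). The stress gene Ndrg1 went from 29.6 RPM (median, 7.19 to 38.9) to 80.7 RPM (median, 53.6 to 180.3), also without overlap (log2 difference 2.00 ± 0.28 (SE), adjusted p = 3.05e-04). Adm, which encodes adrenomedullin, had 3 early and 61 later reads, a ratio per read sequenced of 17.8 (95% interval 5.81 to 88.7). Over the alternative limma fits its log2 difference ran from 0.276 to 3.388 and its adjusted p from 3.82e-04 to 0.78. P4ha2, a collagen prolyl hydroxylase, gave 1.16 and lost the call with the length trend removed (0.86). The classical targets Vegfa and Bnip3 gave 0.03 and 0.31 (adjusted p = 0.89 and 0.278). The maintenance culture was at low oxygen according to the methods of the study, and the oxygen of the differentiating cultures is not stated there.

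The HIF core motif ACGTG was searched, on both strands, in the 250 bases before the annotated starts of RefSeq promoters (GRCm38.p6). Of the 12 tested hypoxia genes 10 had a promoter in that table, and 7 of these 10 held the motif, against 25.7% of 8632 tested autosomal genes with a promoter there. The list was written as genes of the hypoxia response, so this share describes how it was chosen and says nothing about the changes measured here. Genes can have several promoters, and a match is a description of letters. Whether HIF acted on these genes was not tested. Of the genes called higher, 2 of the 4 with a promoter held it, Egln3 at chr12:54204084-54204118 (minus strand) and P4ha2 at chr11:54100831-54100865 (plus strand), while Pdk1 and Adm did not and Ndrg1 had no entry. The matches of these and of uncalled genes, Bnip3 at chr7:138909594-138909628 and Egln1 at chr8:124949303-124949337 (both minus strand), are shown, with 15 bases on each side, along the gene's strand with the motif in capitals.
Egln3: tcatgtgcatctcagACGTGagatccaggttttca
P4ha2: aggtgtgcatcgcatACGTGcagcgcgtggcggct
Bnip3: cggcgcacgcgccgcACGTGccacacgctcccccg
Egln1: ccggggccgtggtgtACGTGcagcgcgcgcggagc

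Stress and nutrient pathways gave scattered calls. In the integrated stress response list 2 of 12 were higher and 0 lower (median 0.69, 0.56 with the length trend removed), beside 3.42% higher over all autosomal genes. Chac1, which degrades glutathione, went from 29.1 RPM (median, 19.5 to 42.9) to 62.8 RPM (median, 35 to 93.3) (log2 difference 1.07 ± 0.13 (SE), adjusted p = 7.96e-05). The cystine transporter Slc7a11 rested on 7 and 40 reads (adjusted p = 0.0477) and lost the call with the length trend removed. Ddit4, an inhibitor of mTORC1, and the heme oxygenase Hmox1 lay just under the fold minimum (0.88 and 0.97, adjusted p = 0.00244 and 0.00153), and both were called higher with the length trend removed (1.01 and 1.01). Atf4 and Ddit3, the transcription factors of that response, gave 0.23 and 0.19 without a call.

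Threonine dehydrogenase Tdh, an enzyme on which naive mESCs depend, went from 429 RPM (median, 399 to 584) to 268 RPM (median, 226 to 337). The groups did not overlap, but the difference of -0.76 ± 0.12 was under the fold minimum (adjusted p = 8.15e-04). The glycine cleavage gene Gldc rose by 1.03 (adjusted p = 0.0128) and was the single call among 16 threonine, serine and one-carbon genes (median -0.24, -0.21 with the length trend removed, where its call was lost). With all 16 libraries no member was called in either direction among 21 cholesterol synthesis genes (median 0.02), 11 of fatty acid synthesis (0.25), 21 lysosomal genes (-0.19), 14 p53 targets (0.01), 9 heat shock genes (-0.01) or 7 of metal and iron handling (0.22). In these lists 4, 0, 6, 2, 1 and 1 genes passed the adjusted p at a smaller fold. With the length trend removed their medians were -0.06, 0.00, -0.31, 0.09, -0.15 and 0.13. The cholesterol genes Idi1, Tm7sf2 and Sc4mol were then called lower (-1.08, -1.10 and -1.02) and the lysosomal protease gene Ctsz higher (1.07). Without the X14 libraries of day 0, 3 cholesterol genes were called higher and 2 lower, 2 of fatty acid synthesis, 1 lysosomal gene and 3 p53 targets higher, and 1 heat shock gene lower. Over all autosomal genes in that fit, 11.9% were called higher and 3.93% lower. Of the oxidative stress list 1 of 10, Slc7a11, was called higher (median 0.23, 0.14 with the length trend removed, where the call was Hmox1).

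Matrix and cytoskeletal genes rose in part. Of 14 basement membrane genes 3 were higher and 0 lower (median 0.61, 0.29 with the length trend removed, and a median exon length of 7418 bases). Over all autosomal genes 3.42% were higher. The collagen IV chain Col4a1 went from 19.1 RPM (median, 5.12 to 29.3) to 59.3 RPM (median, 22.9 to 95.6) (log2 difference 1.99 ± 0.44 (SE), adjusted p = 0.0101), and averaged 12.9 RPM on day 4. Its partner chain Col4a2 was called with the replicate block (adjusted p = 0.0618 without and 0.0144 with it). Perlecan, Hspg2, rose by 1.66 and laminin Lama5 by 1.36 (adjusted p = 0.00775 and 0.0046), the latter without a call once the length trend was removed (0.87). Laminin Lamb1 gave 1.35 and passed with the replicate block (0.0372).

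Of 11 tested genes of serum and actin response 3 were higher and 0 lower (median 0.84, 0.66 with the length trend removed), beside 3.42% higher over all autosomal genes. The calponin Cnn2 rose by 1.49 and the matricellular gene Cyr61 by 1.12 (adjusted p = 0.00784 and 0.0319). Myosin light chain Myl9 had 3 early and 68 later reads, a ratio of 19.8 (95% interval 6.51 to 98.6). Among 10 tested genes of the cadherin switch, 2 were higher and 0 lower (median 0.49, 0.28 with the length trend removed). The intermediate filament gene Vim went from 153 RPM (median, 73 to 185) to 289.6 RPM (median, 238 to 365) without overlap (log2 difference 1.05 ± 0.17 (SE), adjusted p = 0.00101), and stood at 90.0 ± 26 RPM (SD, n = 4) on day 4. The tight junction gene Cldn6 rose by 1.95 (adjusted p = 0.0363), while the adhesion genes Epcam and Cdh1 gave 0.96 and 0.35 (adjusted p = 8.15e-04 and 0.364).

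Id1 and Id2, targets of BMP signals, rose, and targets of Nodal were not called. Of 14 genes of the Nodal and BMP list 3 were higher and 0 lower (median 0.16, 0.03 with the length trend removed), beside 3.42% higher over all autosomal genes. Id1, an inhibitor of basic helix-loop-helix factors (chr2:152736251-152737410, mm10), had 3 reads in the 8 early libraries and 227 in the 8 later ones, a ratio per read sequenced of 66.2 (95% interval 22.4 to 323). All 8 later libraries lay above the early ones, with 2.81 ± 0.90 RPM (SD, n = 4) on day 2 and 28.8 ± 5.25 RPM on day 3. Id2 went from 5.8 RPM (median, 1.71 to 20.5) to 37.7 RPM (median, 14.8 to 68.6) (log2 difference 2.51 ± 0.29 (SE), adjusted p = 5.46e-05). Id3 gave 1.15 without a call (adjusted p = 0.0875), and Id4 -1.21, which passed as lower with the replicate block (adjusted p = 0.0589 without and 0.0464 with it). Bmp4 itself rested on 4 and 34 reads (log2 difference 1.5 ± 0.39 (SE), adjusted p = 0.0252). The ligand Nodal and its targets Lefty1 and Lefty2 gave -0.37, 0.69 and -0.38 (adjusted p = 0.118, 0.0859 and 0.387).

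Of 8 tested retinoic acid response genes 1 was higher and 1 lower. Their median was -1.03 (-1.08 with the length trend removed, where Stra6 was also lower), and it was -0.48 for day 2 alone and -0.53 with the reads thinned to the shallowest library, where the mesoderm markers had a lower median (-0.63). The lower gene was Stra8, given above, and the higher one Crabp2, a carrier of retinoic acid, which went from 2.34 RPM (median, 0 to 5.55) to 11.1 RPM (median, 3.39 to 31.1) (log2 difference 2.73 ± 0.49 (SE), adjusted p = 0.00271).

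Of 17 genes of the G1 phase and the Myc family, 4 were higher and 0 lower (median 0.32, 0.20 with the length trend removed), beside 3.42% higher over all autosomal genes. Mycn, the main Myc family member of mESCs, went from 114 RPM (median, 47.8 to 175) to 237 RPM (median, 187 to 431) without overlap (log2 difference 1.42 ± 0.18 (SE), adjusted p = 1.47e-04). Myc is given above. Ccnd2, a D-type cyclin, rose by 1.98 and the CDK inhibitor Cdkn1c, an imprinted gene, by 1.42 (adjusted p = 0.00557 and 0.00391). Ccnd1 lay under the fold minimum (0.96, adjusted p = 0.00653), as did the CDK inhibitor Cdkn1b on the lower side (-0.90, adjusted p = 0.028), which was called lower with the length trend removed (-1.10).

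Calls in chromatin complexes were on the higher side, where 3.42% of all autosomal genes were called. In the Polycomb list, 2 of 13 were higher and 0 lower (median 0.15, -0.05 with the length trend removed). Jarid2, an accessory factor of the complex that writes H3K27 methylation, rose by 1.32 and Phf19 by 2.33 (adjusted p = 0.00727 and 0.00716), and the Jarid2 call was lost with the length trend removed (0.88). Among 14 BAF complex genes, 1 was called, Smarcd1 (log2 difference 1.02 ± 0.30 (SE), adjusted p = 0.0432), also lost with the length trend removed, and the list median of 0.33 became 0.02.

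Most markers of mesoderm, endoderm and fibroblasts were near the floor of detection, while some trophoblast and neural markers had reads throughout. Summed over 10 mesoderm markers the libraries held 2.06 to 13.7 RPM on days 0 and 1 and 3.39 to 13.8 RPM on days 2 and 3, and 8 of the 10 averaged under 1 RPM. Of the other 2, Gsc, an organizer gene, fell from 49 to 6 reads (log2 difference -2.32 ± 0.43 (SE), adjusted p = 0.00358). The 12 endoderm markers summed to 0 to 12 and then 7.32 to 16.7 RPM. Foxa2, Apoa1 and Ttr had no read, while Sox7, a SoxF factor, went from 1.17 RPM (median, 0 to 4.71) to 8.95 RPM (median, 3.83 to 15) (log2 difference 2.55 ± 0.35 (SE), adjusted p = 2.48e-04) and averaged 0.33 RPM on day 4. The other 3 tested endoderm markers, Gata4, Dab2 and Amn, gave -0.74, -0.38 and -0.12 without a call, and the list median was -0.25. Trophoblast and surface ectoderm markers summed to 81.2 to 135 and then 57.5 to 163 RPM over 10 genes, with Krt19, a keratin, called higher (log2 difference 2.39 ± 0.40 (SE), adjusted p = 0.00161). Krt18 gave 1.29 and passed with the replicate block (adjusted p = 0.0548 without and 0.0293 with it). Neural markers (9 autosomal genes) summed to 95.6 to 217 and then 149 to 259 RPM with 0 called, where Olig2 passed with the replicate block (adjusted p = 0.0718 without and 0.0492 with it). Fibroblast markers summed to 0.854 to 13.4 and then 4.97 to 21.3 RPM over 11 genes, and Thy1 was called higher (log2 difference 2.16 ± 0.43 (SE), adjusted p = 0.00574). Of the other 2 tested, Col1a1 gave 0.42 without a call, and Pdgfrb had 26 early reads and 1 later read, a ratio per read sequenced of 0.0337 (95% interval 0.000821 to 0.205), and was called lower with the length trend removed (adjusted p = 0.0297). Among genes of the 2-cell-like state 0 of 7 tested were called. In bulk libraries fewer cells of a type and less RNA per cell cannot be told apart.

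The largest changes reached beyond these lists. Among called genes that reached a mean of 10 RPM in the higher group and had the same side in all 4 cultures, 314 were higher and 113 lower, and the 12 largest of each are named. Besides Otx2, Id1, Spry4 and Dnmt3l, the rises included a pair of imprinted genes. Peg10, a paternally expressed gene of retrotransposon origin (chr6:4747306-4760517, mm10), went from 20.2 RPM (median, 6.17 to 57.1) to 317 RPM (median, 84.5 to 573) without overlap (log2 difference 3.71 ± 0.26 (SE), adjusted p = 4.42e-07). The maternally expressed non-coding H19 (chr7:142575529-142578143, mm10) went from 2.91 RPM (median, 0.463 to 4.71) to 21.5 RPM (median, 6.78 to 46.8), also without overlap (log2 difference 3.31 ± 0.39 (SE), adjusted p = 6.74e-05). On day 8 these averaged 7514 and 15476 RPM.

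Vrtn, a gene linked to vertebral number, had 5 early and 320 later reads (log2 difference 3.70 ± 0.40 (SE), adjusted p = 2.74e-05). Dll1, a Notch ligand, had 7 and 182 reads and no overlap (log2 difference 3.50 ± 0.44 (SE), adjusted p = 1.53e-04). The ectonucleotidase Enpp3 went from a median of 1.98 to 35.5 RPM and Gm98 from 2.65 to 40.7 (log2 differences 3.8 and 3.52, adjusted p = 1.91e-04 and 5.27e-04). Esrp1, a splicing factor of epithelial cells, and Lrp2, the endocytic receptor megalin, rose by 3.30 and 3.26 (adjusted p = 0.00654 and 0.00105). In each of these 4 genes the groups overlapped. Over days 4 to 8 Lrp2 averaged 121, 191, 335, 206 and 108 RPM, whereas Vrtn peaked at 64.6 RPM on day 4.

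On the falling side stood Cdx1 and Stra8, given above, and genes with no shared list. Trpm1, a cation channel, fell from 18.1 RPM (median, 2.16 to 52.3) to 1.49 RPM (median, 0 to 5.65) and had no read in any library of day 3 (log2 difference -3.45 ± 0.39 (SE), adjusted p = 4.04e-05). The calcium-binding gene S100a1 fell from 8.89 RPM (median, 3.67 to 27.7) to 0.667 RPM (median, 0 to 2.87) without overlap (log2 difference -3.24 ± 0.34 (SE), adjusted p = 2.26e-05), and its neighbour S100a13 fell by 2.58 (adjusted p = 0.0099). Spic, an ETS factor, went from 17.5 RPM (median, 4.19 to 30.9) to 2.67 RPM (median, 0 to 10.2) (log2 difference -2.88 ± 0.70 (SE), adjusted p = 0.0181). The peptide transporter Slc15a1, the serpin Serpinb1a, the carbonic anhydrase relative Car8 and nicotinamide N-methyltransferase Nnmt fell by 2.68, 2.26, 2.17 and 2.20 (adjusted p = 3.42e-04, 0.00855, 0.0056 and 0.0354). Aspa, an aspartoacylase, was close to the threshold (log2 difference -2.33 ± 0.72 (SE), adjusted p = 0.0487). Tmem181a fell from a median of 30.8 to 3.38 RPM (adjusted p = 2.38e-04) but has near-identical neighbours, so its reads are uncertain. On day 4 Trpm1, Spic, Slc15a1, Aspa, Serpinb1a and Nnmt averaged 0 RPM. All 24 of these genes kept their call with the length trend removed.

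**Figure D5:**
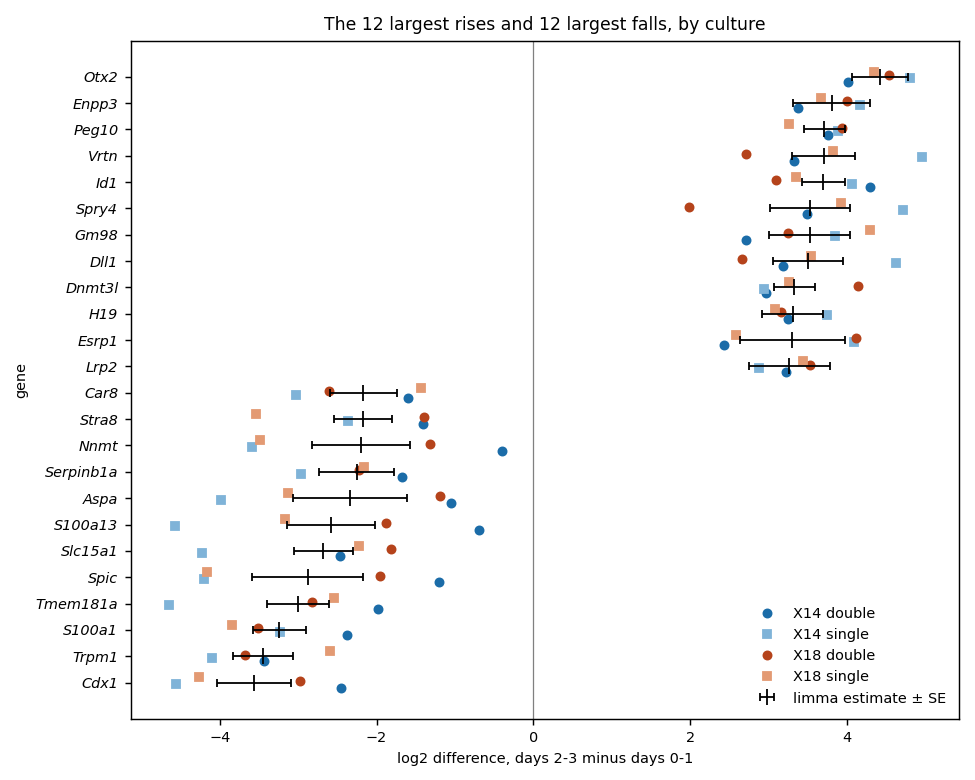
For the 12 largest rises and 12 largest falls, points give the log2 difference of each culture (mean of days 2 and 3 minus mean of days 0 and 1), and the black mark the limma estimate with its SE. All 4 cultures lie on 1 side of 0 in each gene because the genes were picked by that rule. X14 double has the smallest fall in Nnmt, S100a13 and Spic.

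Whether lines or labels responded differently was tested with an interaction term. Between X14 and X18, 0 of 12567 autosomal genes (0%) were called by limma, with 785 at an unadjusted p under 0.05 and a smallest adjusted p of 0.732. Between libraries labelled double and single it was also 0 genes (0%), with 380 at an unadjusted p under 0.05 and a smallest adjusted p of 0.725. Each side of these comparisons held 2 cultures.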

How the data were processed

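Gene expression was measured by RNA-seq (TruSeq libraries, single-end reads) in 36 libraries, of which 16 were used. Per the labels and the methods of the study, the authors trimmed reads with trim_galore, aligned them to mm10 with TopHat2 2.0.12 (version from the submitters' processing notes) and quantified genes in SeqMonk. The annotation version and strandedness are not given in the sources used here, so overlapping and antisense genes may share reads. The deposited values are on a log2 scale, and the values fit log2 RPKM, with a gene without reads written as a small fixed value. Whole reads were recovered from these values, and RPM in the text are recovered reads per 1000000 of the library total that the authors' scaling implies, of which genes held 77.7% to 89.6%, with a library's floor at 3 reads. Since a read is not an independent molecule, intervals of read ratios (95%) cover counting error only.

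Differences were tested on the deposited log2 values with limma 3.58.1 in R 4.3.3 (trended variance, day as factor, two-sided, days 2 and 3 against days 0 and 1), with Benjamini-Hochberg adjustment over the 13075 genes with at least 1 RPM in 4 or more libraries. Calls needed an adjusted p under 0.05 and a log2 difference of at least 1. The code was tested on simulated data. Named genes were autosomal genes of function lists, and the 12 strongest called rises and 12 strongest called falls among genes with a mean of 10 RPM in the higher group and 1 direction in all 4 cultures. The members and lists were chosen with earlier results of these data known. The list counts and medians carry no test.

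Replicate numbers mark a line and a label word, the same cell line on every day, and deviations from the day mean correlated at 0.324 or more in the 18 same-numbered pairs without X14 libraries of day 0 (18 of all 24 pairs were above 0.1, and different numbers had a median of -0.2215). Alternatives covered the replicate block, 1 value per culture, all 36 libraries, 75th percentile and quantile scaling, log2(RPM + 1), filters, the fold minimum, voom on recovered reads, thinning to the shallowest library, and leaving out cultures, days or the X14 libraries of day 0. The length trend (loess, span 0.5), the trend of the spread on RPM and leaving out single libraries were chosen after seeing the data. The promoters came from RefSeq (GRCm38.p6).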

Additional observations from a re-analysis of the deposited data

Results flagged for a closer look

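Among 280 groups of 8 libraries (140 genes, days 0 and 1 or days 2 and 3), 10 held a library that stood apart from the other 7 by Dixon's ratio of gap to range on the deposited log2 values, where a library without reads holds a value set by its depth. Chance gives about 5% of groups, and 10 of 280 is below that share, so the values are listed as a description. X18 double on day 0 was the lowest of the early libraries in Lef1 (3.08 RPM, the next at 17.1), Ier3 (0 RPM, the next at 4.27) and Vim (73 RPM, the next at 123), and this library also had the lowest length slope, -0.424. X18 single on day 0 was lowest in Tet3 (0 RPM, the next at 4.31). X14 double on day 0 was lowest in Id3 (0.463 RPM, 1 read) and highest in Fos (2.78 RPM, 6 reads, the next at 0.926). X14 single on day 1 held all 5 early reads of Spry4 (2.62 RPM).

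On days 2 and 3, X18 single of day 2 was lowest in Etv5 (217 RPM, the next at 306) and Fgfr2 (8.95 RPM, the next at 25.7). X18 double of day 2 was highest in Gsc (2.87 RPM, 3 reads), where 2 others had reads, at 0.753 and 0.667 RPM.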

How the results depend on the processing

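Against 430 higher and 197 lower genes, the replicate block gave 577 and 241 and kept all of them, and no named call was lost. It added calls for Sall2, Dusp4, Axin2, Cish, Tet3, Col4a2, Lamb1, Id4, Vldlr, Krt18 and Olig2 among the 140 genes followed and changed no other call. Without the X14 libraries of day 0 the counts were 1499 and 494 (745 and 653 with the length trend also removed), without day 0 they were 135 and 38, and without day 3 they were 7 and 5. Leaving out a culture gave 95 to 665 higher and 45 to 251 lower genes, and leaving out 1 library 249 to 1015 and 121 to 378. Counts grew by over 1.5 times without X14 double of day 0 or X14 single of day 1, and shrank as much without X18 double or single of day 0, X14 double or X18 double of day 1, X14 single of day 2 or 3, or X18 single of day 3. With no fold minimum 737 and 525 passed, a mean of 10 RPM left 97 lower among the 8553 genes tested, and the length trend removed with the replicate block gave 308 lower. The cause of these shifts was not tested. Some of these fits also held fewer genes or libraries. The other alternatives gave counts within 1.5 times. Of the alternatives followed gene by gene, none reversed a named gene that was called in either fit. Named genes without a call changed sign in some, at most 6 of 140, without day 2. Of 81 named calls, voom lost 8, thinning 10, quantile scaling 9, 75th percentile scaling 5 and the length trend 15, while leaving out X14 single lost 21, X18 double 35, X18 single 44, day 0 50 and day 3 76. The line and label interactions gave 0 genes under each alternative run. Depth limits genes below 1.13 to 3.23 RPM, the floor of 3 reads.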
